A study of Rattus norvegicus with 9 samples.

Results

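The miR-30 family of miRNAs was followed in rat hippocampus by small RNA sequencing. The rule took every row of the deposited table named miR-30a to miR-30e, with any arm or precursor ending, among them rno-miR-30b-5p and rno-miR-30e-5p, which are set against each other throughout. It found 11 of the 633 listed miRNAs, 5 rows from the 5p arm and 6 from the 3p arm, and all 11 were among the 469 miRNAs with enough counts to be tested. The study set out to find hippocampal miRNAs that differ after MK-801, and to see what clozapine does after MK-801.

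The rats were Sprague-Dawley, labelled with an age of postnatal day 21 and described as 5 weeks old before treatment, and 3 libraries were sequenced in each group. VEH rats were given saline for 14 days and again for 7 days. MK-801 (dizocilpine), which blocks NMDA-type glutamate receptors, was injected intraperitoneally into the MK-801 rats at 0.2 mg/kg daily for 14 days, with saline for the next 7 days. In the MK-801+CLO rats this course was followed by 7 days of intraperitoneal injections at 10 mg/kg, taken from the group's name and the study's title to be of the antipsychotic clozapine (CLO). Each group had 10 rats. Which rats a library came from, and whether libraries of a group came from separate rats, is not in the labels, so the p-values reflect library-to-library spread alone, which may be technical. In whole tissue, fewer cells of a type and less RNA per cell cannot be told apart.

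A miRNA gene is transcribed as a hairpin, from which Dicer cuts a duplex of a 5p and a 3p strand. One strand is usually kept in an Argonaute protein, where its seed, bases 2 to 8, pairs with target mRNAs. The miR-30 genes lie in neighbouring pairs in the genome, are widely expressed, and in neurons miR-30a-5p is known to repress Bdnf, which encodes a growth factor of synapses. In the RefSeq annotation of GRCr8, Mir30b neighbours Mir30d within a long non-coding RNA gene, and Mir30e neighbours Mir30c1 within Nfyc, which encodes a subunit of the transcription factor NF-Y. Mir30a neighbours Mir30c2, and miR-30c-5p is made by both Mir30c1 and Mir30c2, so its counts cannot be given to 1 locus.

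The 5p sequences show why these rows count as a family, and how little separates some of them. They are given 5′ to 3′ from RefSeq (GRCr8) with the seed in capitals, together with miR-384-5p, which carries the same seed.
miR-30a-5p: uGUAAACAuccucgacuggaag
miR-30e-5p: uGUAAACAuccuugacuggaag
miR-30c-5p: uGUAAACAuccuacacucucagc
miR-384-5p: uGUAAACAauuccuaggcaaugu
In the deposited sequence column, GUAAACA was the seed of 6 of the 633 listed miRNAs, namely the 5 miR-30 5p rows and miR-384-5p. MiR-30a-5p and miR-30e-5p differ by the 1 substitution C13U, counted from the 5′ end. MiR-30d-5p also differs from miR-30a-5p at 1 base. MiR-30b-5p differs from miR-30e-5p at 7 of 22 positions, and shares its first 18 bases with miR-30c-5p. The sources used here do not state how a read that fits several rows was counted, so the split of reads among miR-30a-5p, miR-30d-5p and miR-30e-5p, and between miR-30a-3p and miR-30e-3p, is uncertain. The split between miR-30b-5p and miR-30c-5p is uncertain too, for reads that end within the shared 18 bases.

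The 3p arms fall under 3 other seeds, and are shown because the arms behave differently in the counts.
miR-30a-3p: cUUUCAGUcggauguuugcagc
miR-30c-1-3p: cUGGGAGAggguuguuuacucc
miR-30c-2-3p: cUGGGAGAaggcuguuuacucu
UUUCAGU was shared by miR-30a-3p, miR-30d-3p and miR-30e-3p, UGGGAGA by both miR-30c 3p rows, and UGGGAUG belonged to miR-30b-3p alone. None of these 3 seeds occurred in a miRNA outside the family among the 633 listed. MiR-30a-3p and miR-30e-3p differ at 1 of 22 positions, and miR-30c-1-3p and miR-30c-2-3p at 3. RefSeq entries were found by name for 6 of the 11 rows, and all 6 had the deposited sequence. The rows without one were miR-30b-5p, miR-30b-3p, miR-30d-5p, miR-30d-3p and miR-30e-3p.

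Library totals ran from 10665718 to 18284905 miRNA counts, and levels are given as CPM, the count scaled to a library total of 1000000 miRNA counts. All 5 forebrain neuron miRNAs fixed as markers, among them miR-124-3p and miR-9a-5p, were present, with a summed level of 120990 to 148850 CPM. Most of that sum was miR-9a-5p, at 73353 to 91869 CPM, and miR-124-3p was at 2867 to 3862 CPM. Choroid plexus and ependymal miRNAs (6 of 6 present) summed to 2545 to 5787 CPM in 8 libraries and to 12384 CPM in VEH replicate 3. The 5 epithelial miRNAs summed to at most 8.79 CPM, with miR-200c-3p at 0 in 4 libraries. No 2 libraries of a group agreed within sampling noise, so none were merged.

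Together the 11 rows took 2.30% to 2.64% of all miRNA counts. Their summed level was 24026 ± 1229 CPM (SD, n = 3) in VEH, 24276 ± 840 CPM in MK-801 and 24845 ± 1465 CPM in MK-801+CLO, so the group means lay within 1 SD of each other. MiR-30a-5p alone held 53.3% of the family's counts on average and miR-30d-5p 23.9%. They were the 16th and 25th most abundant of all listed miRNAs. MiR-30b-5p (6.02%), miR-30e-3p (5.69%), miR-30c-5p (4.79%), miR-30e-5p (2.75%) and miR-30a-3p (2.72%) followed. The other 4 rows each held under 1%, and miR-30b-3p was lowest, at 5.44 to 10.4 CPM on 64 to 190 counts per library.

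**Figure D1:**
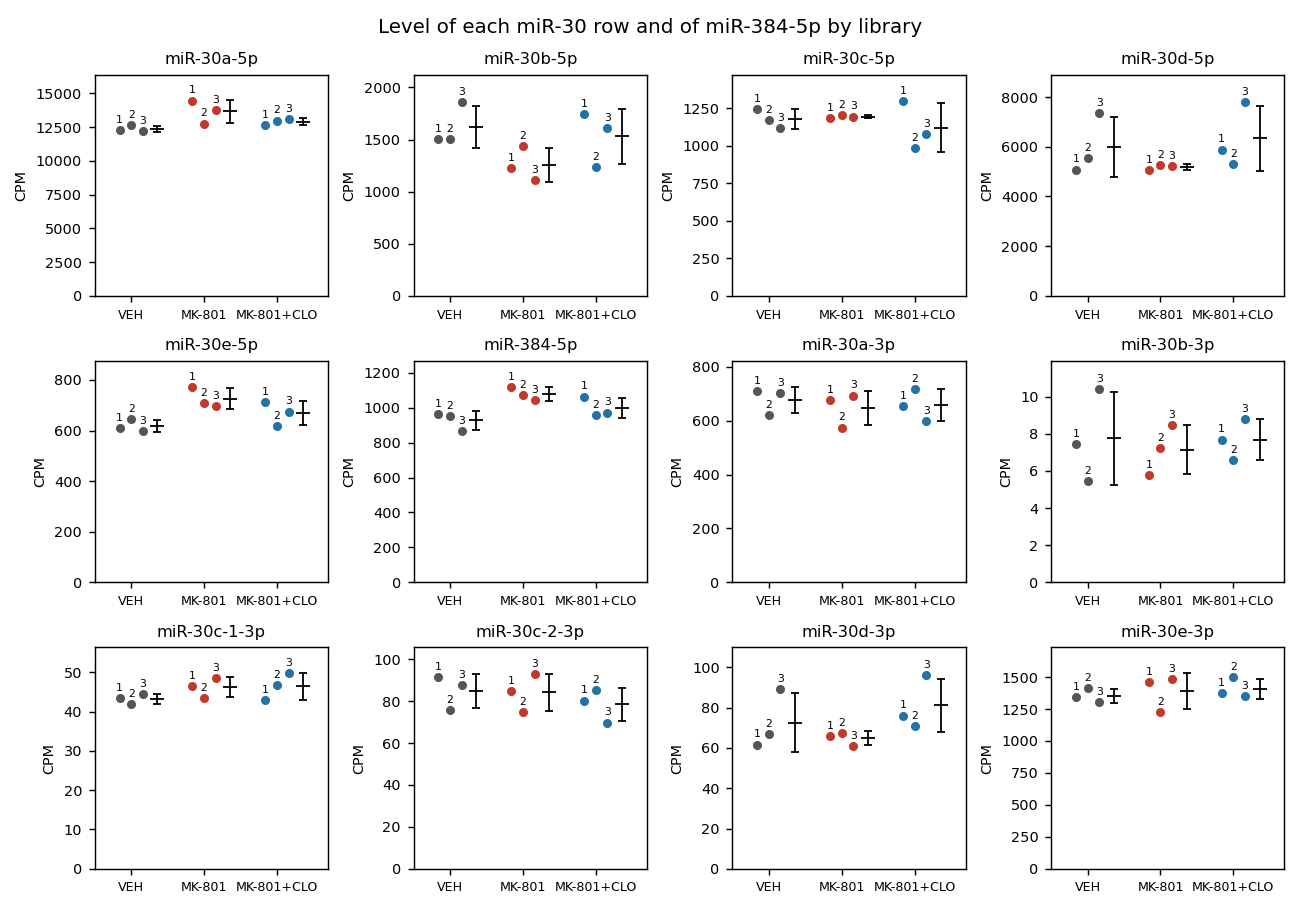
Level in CPM (linear axes from 0) of the 11 miR-30 rows and miR-384-5p in each library. Each point is a library with its replicate number, and bars are the group mean ± SD (n = 3); miR-30b-5p is lower and miR-30e-5p higher in all 3 MK-801 libraries than in any VEH library, while VEH replicate 3 and MK-801+CLO replicate 3 stand high for miR-30d-5p.

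The family's arms were used unevenly. For miR-30a the 5p arm made up 94.5% to 95.7% of the 2 arms' counts in the 9 libraries. The share was 99.2% to 99.6% for miR-30b, 98.7% to 98.9% for miR-30d and 88.2% to 91.4% for miR-30c, whose 2 3p rows were summed. MiR-30e was the exception, with a 5p share of only 29.2% to 36.6%. Its 3p row had 1.73 to 2.42 times the counts of its 5p row, and this held in all 9 libraries. The widest 95% Wilson interval of any of these shares had a half-width of 0.593 percentage points, which covers counting error only. The hairpins of miR-30a and miR-30e are shown because their 5p strands differ at 1 base while their arm shares lie far apart. The sequences are from RefSeq (GRCr8), with the arms found in its mature table in capitals.
Mir30a: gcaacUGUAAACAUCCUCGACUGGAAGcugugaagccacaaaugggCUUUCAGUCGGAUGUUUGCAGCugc
Mir30e: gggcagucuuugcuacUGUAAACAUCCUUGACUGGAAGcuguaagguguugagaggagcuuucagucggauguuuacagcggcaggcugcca
Each arm of miR-30e is 1 base away from the same arm of miR-30a, so these shares carry the uncertainty in how reads were assigned.

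**Figure D2:**
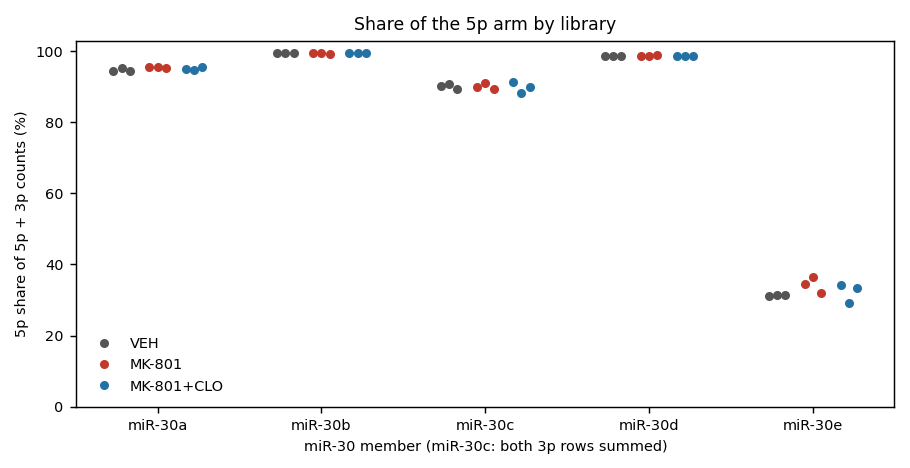
Share of the 5p arm in the summed 5p and 3p counts, in percent, for each miR-30 member, with 1 point per library coloured by group. MiR-30a, miR-30b, miR-30c and miR-30d lie at 88.2% or above in all libraries, and miR-30e lies at 29.2% to 36.6%.

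MK-801 was set against VEH to ask whether the family differs after repeated NMDA receptor blockade. MiR-30b-5p and miR-30e-5p, which share a seed and come from different clusters, lay on opposite sides of VEH, but neither passed the adjusted threshold. MiR-30b-5p stood at 1501, 1504 and 1858 CPM in the VEH libraries and at 1226, 1434 and 1108 CPM in the MK-801 libraries. The groups did not overlap, and VEH replicate 3 was the highest of all 9 libraries. The log2 fold change was -0.35 ± 0.14 (SE), with an unadjusted p of 0.0296 and an adjusted p of 0.659 in edgeR's quasi-likelihood test with Benjamini-Hochberg adjustment over 469 miRNAs. Without VEH replicate 3 it was -0.24. MiR-30e-5p stood at 611, 645 and 599 CPM in VEH and at 772, 708 and 696 CPM in MK-801. These groups did not overlap either, with MK-801 above VEH. Its log2 fold change was 0.26 ± 0.09, with an unadjusted p of 0.0201 and an adjusted p of 0.642 in edgeR.

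The most abundant member, miR-30a-5p, also lay higher in MK-801. It stood at 12274, 12636 and 12226 CPM in VEH and at 14462, 12767 and 13785 CPM in MK-801. In CPM the groups did not overlap, by a narrow margin at MK-801 replicate 2. The scaling factors of the edgeR fit were 1.054 for that library and 1.01, 1.031 and 1.017 for VEH. Scaled by these factors, MK-801 replicate 2 fell among the VEH libraries. The log2 fold change was 0.17 ± 0.09 (adjusted p = 0.814, edgeR). MiR-30d-5p, the cluster partner of miR-30b-5p, was at 5079, 5557 and 7338 CPM in VEH and at 5070, 5272 and 5220 CPM in MK-801. The groups overlapped, and the value of -0.19 ± 0.17 rested on VEH replicate 3, without which it was -0.01. MiR-30c-5p, at 0.04 ± 0.10, was near 0. MiR-384-5p, which has the same seed and a locus of its own, was at 963, 954 and 866 CPM in VEH and 1119, 1070 and 1044 CPM in MK-801, a log2 fold change of 0.24 ± 0.09 (adjusted p = 0.642, edgeR).

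Of the 11 rows, 0 passed an adjusted p of 0.05 in edgeR in this comparison, as did 0.0% of all tested miRNAs. At an unadjusted p under 0.05 there were 2, against 5.12% of all miRNAs, namely miR-30e-5p among the higher (2.99% of all) and miR-30b-5p among the lower (2.13%). With upper-quartile factors the same threshold gave 28 higher and 6 lower of all miRNAs, against 14 and 10 with the factors used here. Leaving out VEH replicate 3 took the 24 miRNAs in all to 15, and leaving out MK-801 replicate 2 took them to 37. DESeq2 and limma voom also gave 0 adjusted and 2 unadjusted. Groups that did not overlap in CPM were seen for 3 of 11 rows, against 13.9% of all miRNAs. Of these 2 were higher (5.97% of all) and 1 was lower (7.89%). Members lay on both sides, 6 higher (46.5% of all) and 5 lower (53.5%), with a median log2 fold change of 0.01 against -0.02 for all 469 miRNAs. With upper-quartile factors 7 were higher and 4 lower, and with library totals 5 were higher and 6 lower.

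None of the 6 rows of the 3p arm had an unadjusted p under 0.05 in edgeR. MiR-30e-3p was at 1343, 1414 and 1303 CPM in VEH and 1459, 1227 and 1484 CPM in MK-801, a log2 fold change of 0.07 ± 0.11. MK-801 replicate 2 lay below all VEH libraries and the other two above them. The remaining 5 ran from -0.14 ± 0.17 for miR-30d-3p to 0.12 ± 0.12 for miR-30c-1-3p. Red blood cell miRNAs (3 of 3) summed to 3058 to 3550 CPM in VEH and 2700 to 3076 CPM in MK-801. Nearly all of that sum was miR-486 (3025 to 3524 CPM in VEH and 2671 to 3046 CPM in MK-801). Each of the 3 overlapped between the groups. Of the other markers, the neuronal miR-138-5p lay higher in MK-801 without overlap (23716 to 37470 against 21386 to 22640 CPM). So did miR-126a-5p of blood vessels and miR-142-5p of leukocytes and microglia. MiR-145-5p of blood vessels lay lower without overlap (243 to 300.1 against 307 to 422.5 CPM). The sums of these marker sets overlapped between the groups. The part of these miRNAs in the miR-30 values was not tested.

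**Figure D3:**
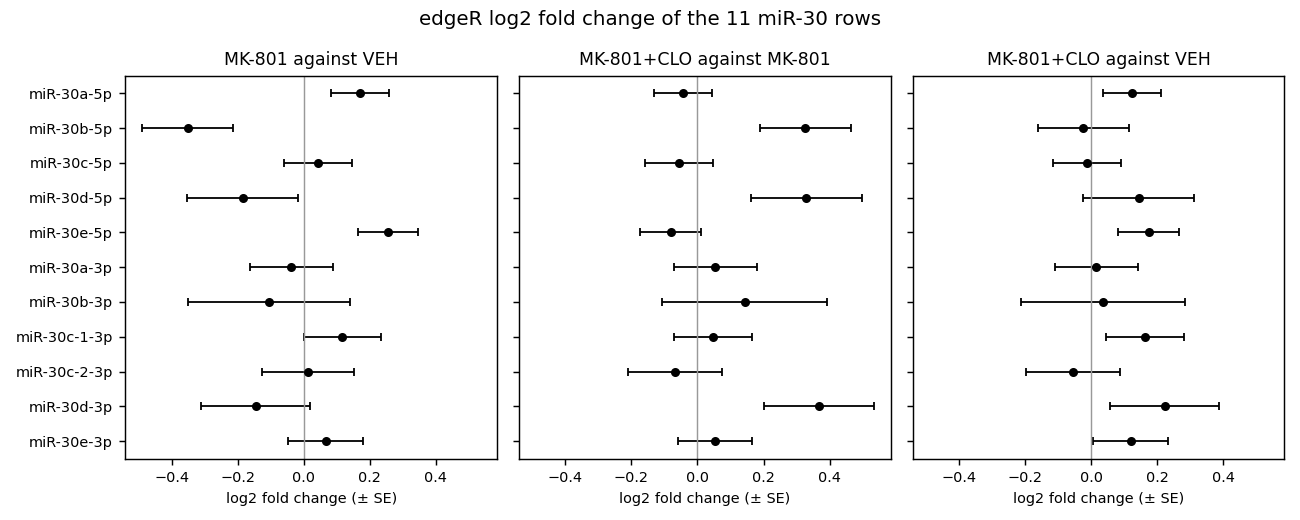
Log2 fold change ± SE from edgeR (x axis) of the 11 miR-30 rows (y axis) in the 3 comparisons, with 3 libraries on each side. MiR-30b-5p lies at -0.35 and miR-30e-5p at 0.26 in MK-801 against VEH, and the miR-30b-5p, miR-30d-5p and miR-30d-3p rows lie between 0.33 and 0.37 in MK-801+CLO against MK-801.

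The ratio of miR-30b-5p to miR-30e-5p within a library sets the members against each other without any scaling factor. It was 2.46, 2.33 and 3.10 in VEH, 1.59, 2.02 and 1.59 in MK-801, and 2.45, 2.00 and 2.38 in MK-801+CLO. All 3 MK-801 ratios lay below all VEH ratios, and the MK-801+CLO ratios overlapped both. The mean log2 ratio was 1.38 ± 0.22 (SD, n = 3) in VEH, 0.79 ± 0.20 in MK-801 and 1.18 ± 0.16 in MK-801+CLO. MK-801 was 0.60 ± 0.17 (SE) below VEH on the log2 scale (exact permutation test, two-sided, p = 0.1, the smallest that 3 against 3 libraries can give). MK-801+CLO was 0.40 ± 0.15 above MK-801 (exact permutation p = 0.2) and differed from VEH by -0.20 ± 0.16 (exact permutation p = 0.4). Over the 3 groups together the exact permutation test gave p = 0.0321, and 0.257 as the adjusted p over the 8 within-family ratios examined. The pair had been chosen with earlier results of these data known, among them values of miR-30b-5p, and the adjustment over 8 ratios does not cover that choice. MiR-30b-5p and miR-30e-5p are the rows with an unadjusted p under 0.05 in edgeR in MK-801 against VEH. Their ratio therefore restates those differences and adds no separate evidence. Without VEH replicate 3, the high library, MK-801 was 0.48 below VEH (exact permutation p = 0.1 over the 3 groups). Setting miR-30b-5p and miR-30c-5p together against the other 3 members of the 5p arm moved the difference to -0.24 (exact permutation p = 0.257 over the 3 groups).

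Of the other ratios between 5p rows, miR-30b-5p over miR-30d-5p, from 1 cluster, was 0.273 ± 0.0213 (SD, n = 3) in VEH, 0.242 ± 0.0299 in MK-801 and 0.245 ± 0.0464 in MK-801+CLO, and the groups overlapped (exact permutation p = 0.475, adjusted p = 0.633). MiR-30e-5p over miR-30c-5p, which 2 loci make, was 0.490, 0.552 and 0.536 in VEH and 0.653, 0.587 and 0.583 in MK-801. Here MK-801 lay above VEH without overlap, by 0.21 ± 0.07 (SE) on the log2 scale (exact permutation p = 0.1, the smallest possible). Over the 3 groups the exact permutation p was 0.107 and the adjusted p 0.428.

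The 5p to 3p ratio of miR-30e was nearly constant in VEH, at 0.455, 0.456 and 0.459, and spread from 0.469 to 0.577 in MK-801 and from 0.412 to 0.519 in MK-801+CLO. The exact permutation test over the 3 groups gave p = 0.271 (adjusted p = 0.434). For miR-30d the ratio was 82.3 to 83.1 in VEH, 77.0 to 85.8 in MK-801 and 74.8 to 81.0 in MK-801+CLO, so that MK-801+CLO and VEH did not overlap. The 4 other arm ratios had exact permutation p-values of 0.189 for miR-30a, 0.268 for miR-30d, 0.621 for miR-30b and 0.968 for miR-30c, with adjusted p-values of 0.434 to 0.968.

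**Figure D4:**
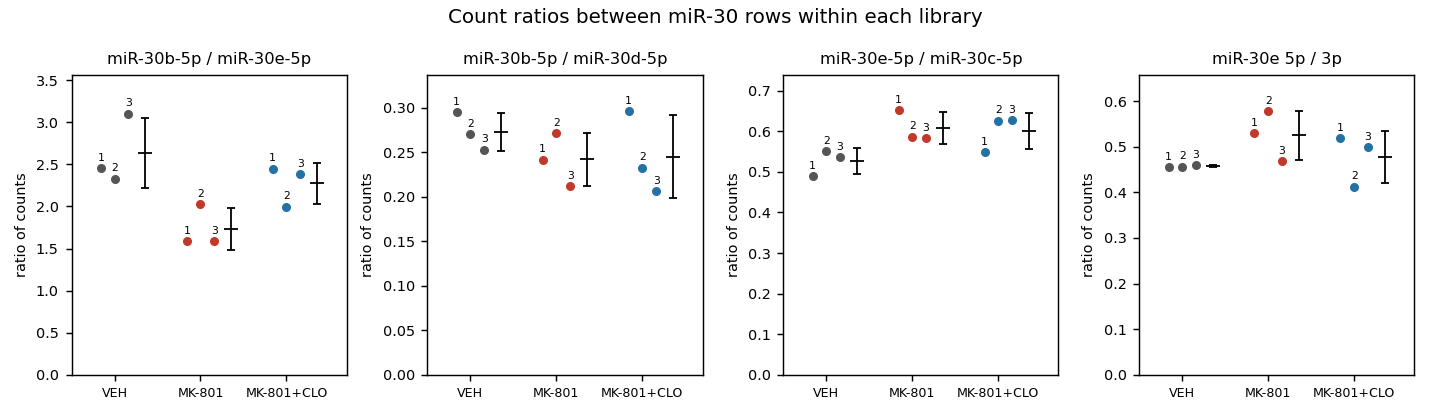
Ratio of counts within each library (y axis, linear from 0) for 4 of the 8 ratios examined, by group. Each point is a library with its replicate number, and bars give the mean ± SD (n = 3); for miR-30b-5p over miR-30e-5p the 3 MK-801 libraries, at 1.59 to 2.02, lie below the 3 VEH libraries, at 2.33 to 3.10.

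The effect of clozapine after MK-801 was read from MK-801+CLO against MK-801. MiR-30b-5p and both arms of miR-30d, from 1 cluster, lay higher with clozapine in group means, and none passed the adjusted threshold. MiR-30b-5p was at 1746, 1236 and 1609 CPM with clozapine, against 1226, 1434 and 1108 CPM in MK-801. Replicates 1 and 3 lay above all MK-801 libraries and replicate 2 among them, so the groups overlapped. The log2 fold change was 0.33 ± 0.14, with an unadjusted p of 0.0400 and an adjusted p of 0.535 in edgeR. MiR-30d-5p was at 5888, 5308 and 7800 CPM, against 5070, 5272 and 5220 CPM. All 3 lay above MK-801, replicate 2 barely. Its log2 fold change of 0.33 ± 0.17 (adjusted p = 0.623, edgeR) was 0.13 without MK-801+CLO replicate 3 and 0.44 without replicate 2.

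MiR-30d-3p, the other arm of that hairpin, was at 76.1, 71.0 and 96.3 CPM against 65.9, 67.5 and 60.8 CPM. These groups did not overlap, and the log2 fold change was 0.37 ± 0.17 (unadjusted p = 0.0504, adjusted p = 0.573, edgeR). Without MK-801+CLO replicate 3 it was 0.21. With upper-quartile factors miR-30b-5p was at 0.21 and miR-30d-5p at 0.22. MiR-30b-3p was at 0.14 ± 0.25. The 7 other rows ran from -0.08 ± 0.09 for miR-30e-5p to 0.05 ± 0.13 for miR-30a-3p.

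By edgeR 0 of 11 rows passed the adjusted threshold, as did 0.0% of all tested miRNAs, and 1 had an unadjusted p under 0.05, against 8.32% of all miRNAs. It was higher, as were 4.69% of all, and 0 rows were lower, against 3.62% of all. Upper-quartile factors turned that split over all miRNAs from 22 higher and 17 lower to 4 and 44. The 39 miRNAs in all became 18 without MK-801+CLO replicate 3 and 23 without MK-801 replicate 1. DESeq2 gave 0 adjusted and 2 unadjusted (miR-30b-5p and miR-30d-3p), and limma voom gave 0 and 1. Groups did not overlap for 2 of 11 rows, both of miR-30d, against 11.5% of all miRNAs, and both were higher (4.69% of all), with 0 lower (6.82%). There were 7 rows higher (48.8% of all) and 4 lower (51.2%), with a median of 0.05 against 0.00 for all miRNAs. Upper-quartile factors moved the median of all miRNAs to -0.12 and that of the 11 rows to -0.06, with 4 higher and 7 lower, while the 4 rows of miR-30b and miR-30d stayed above 0. Blood vessel miRNAs (4 of 4 present) summed to 25681 to 30246 CPM with clozapine and 22711 to 24163 CPM in MK-801. MiR-143-3p made up most of that sum (19492 to 23136 against 16834 to 17638 CPM), and miR-126a-3p also lay higher. MiR-126a-5p and miR-145-5p overlapped between the groups. Leukocyte and microglial miRNAs (4 of 4) summed to 849 to 1073 CPM against 758 to 793 CPM. That sum was mostly miR-150-5p (799 to 1021 against 699 to 734 CPM). MiR-142-5p lay lower without overlap (40.8 to 41.4 against 42.5 to 48.1 CPM), and miR-142-3p and miR-223-3p overlapped. The part of both sets in the miR-30 values was not tested.

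Against VEH, the MK-801+CLO libraries stand for the whole drug course. Here 0 of 11 rows passed the adjusted threshold or had an unadjusted p under 0.05 in edgeR, against 0.0% and 14.9% of all miRNAs (7.46% higher and 7.46% lower). Over all miRNAs this split was 35 and 35, but 28 and 40 with upper-quartile factors and 17 and 46 with library totals. The 70 miRNAs in all became 34 without MK-801+CLO replicate 3 and 38 without VEH replicate 3. DESeq2 gave 0 adjusted and 1 unadjusted (miR-30e-5p), and limma voom 0 and 0. MiR-30b-5p, at 1236 to 1746 CPM with clozapine and 1501 to 1858 CPM in VEH, had a log2 fold change of -0.02 ± 0.14. MiR-30e-5p, at 713, 619 and 675 CPM against 611, 645 and 599 CPM, had one of 0.17 ± 0.09. MiR-30a-5p was at 12640, 12990 and 13109 CPM against 12226 to 12636 CPM. It was the 1 row of 11 whose groups did not overlap, against 17.5% of all miRNAs (5.97% higher and 11.5% lower), and replicate 1 cleared VEH replicate 2 by a few CPM. Its log2 fold change was 0.12 ± 0.09 (adjusted p = 0.537, edgeR), 0.08 without MK-801+CLO replicate 3 and 0.06 with library totals. Rows higher numbered 8 (50.1% of all) and lower 3 (49.9%), with a median of 0.12 against 0.00 for all miRNAs. With library totals 6 were higher and 5 lower, with a median of 0.06 against -0.06 for all miRNAs. Blood vessel miRNAs summed to 25681 to 30246 CPM in MK-801+CLO and 21837 to 25137 CPM in VEH, and choroid plexus and ependymal miRNAs to 2545 to 3842 CPM against 3972 to 12384 CPM. Neither pair of sums overlapped between the groups. Most of the blood vessel sum was miR-143-3p (19492 to 23136 against 15929 to 19040 CPM). MiR-126a-3p and miR-126a-5p also lay higher without overlap, and miR-145-5p overlapped (203.3 to 451.9 against 307 to 422.5 CPM). The part of these markers in the miR-30 values was not tested. The 3 comparisons share libraries, so their values are not independent.

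The members did not all vary together across the 9 libraries. As a measure of likeness, the SD over the 9 libraries of the log2 ratio of 2 rows was taken, which is 0 for rows that keep the same proportion. The 2 arms of miR-30d kept proportion closely, with an SD of 0.06, as did miR-30a-3p and miR-30c-2-3p of the neighbouring Mir30a and Mir30c2 genes (0.06). MiR-30b-5p was closer to its cluster partners miR-30d-5p and miR-30d-3p (0.19 each) than to any other member, and its SD to miR-30e-5p was 0.31. VEH replicate 3 and MK-801+CLO replicate 3 lay above the 9-library mean for miR-30d-5p, miR-30d-3p, miR-30b-5p and miR-30b-3p. Against each row's mean, miR-30d-5p was 0.35 and 0.44 higher there on the log2 scale. The same libraries held the highest and the lowest choroid plexus sums, 12384 and 2545 CPM. Their part in the miR-30b and miR-30d levels was not tested. MiR-30a-5p kept proportion with members of another cluster, miR-30c-1-3p (0.07), miR-30e-3p (0.08) and miR-30e-5p (0.08), more closely than with its own 3p arm (0.14). MiR-30e-5p, at a mean of 671 CPM against 12988 CPM, differs from miR-30a-5p at 1 base. The part of read assignment in their likeness was not tested. MiR-30c-5p, which 2 loci make, lay nearest to miR-30e-5p (0.13).

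**Figure D5:**
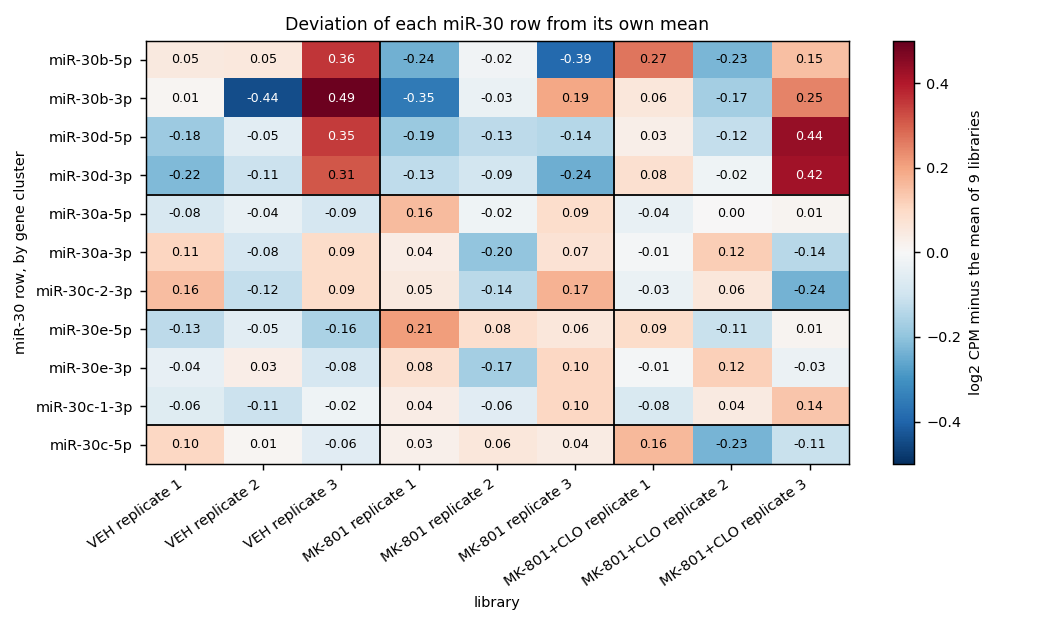
Log2 CPM of each miR-30 row minus its mean over the 9 libraries (colour and printed value), with rows ordered by gene cluster and miR-30c-5p, made by 2 loci, last. VEH replicate 3 and MK-801+CLO replicate 3 are raised for all 4 rows of miR-30b and miR-30d, by 0.15 to 0.49.

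Among the 332 other tested miRNAs with a mean of at least 10 CPM, the closest to miR-30e-5p was miR-384-5p, with an SD of 0.05, so that the 2 seed mates kept nearly the same proportion in all libraries. MiR-29c-3p (0.07), miR-101a-3p (0.07), miR-30a-5p (0.08) and miR-101b-3p (0.08) followed, and the median of all 332 was 0.21. MiR-30e-5p has 40.9% G and C bases. MiR-384-5p (34.8%), miR-29c-3p (36.4%), miR-101a-3p (33.3%) and miR-101b-3p (38.1%) have less and miR-30a-5p (45.5%) has more, against a median of 47.8% over the miRNAs at this level. The part of base composition in this likeness was not tested. The closest to miR-30b-5p were miR-652-3p (0.14), miR-376b-3p (0.16), miR-181d-5p (0.17), miR-543-5p (0.18) and miR-134-3p (0.18), with G and C shares of 38.1% to 59.1%. The share of miR-30b-5p itself is 40.9%, the same as that of miR-30e-5p. MiR-30d-5p ranked 9th and miR-30e-5p 199th of 332, and the median SD was 0.30. None of the 5 was a member of the family or shared its seed.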

How the data were processed

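Mature miRNAs were measured by small RNA sequencing in 9 hippocampal libraries, 3 per group by their titles. The authors deposited 1 table with whole-number counts and a second set of values headed TPM, which equal each count over the library total (largest relative difference 0.000473%), so these deposited values are CPM. Cutadapt 1.14, Bowtie, DESeq and the build Rnor_6.0 are named per the submitters' processing notes, without roles. The table had 21 blank lines and 1 split name, which was rejoined.

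EdgeR 4.0.16 (R 4.3.3) was fitted to all 9 libraries with TMM scaling, filterByExpr (469 of 633 miRNAs, 99.997% of counts), 1 mean per group and glmQLFTest, with Benjamini-Hochberg adjustment at 0.05. SE is the absolute log2 fold change over the square root of F, and its median was 0.16 in each comparison. At 10 CPM a library holds 107 to 183 counts of a miRNA. Exact permutation tests over 3 groups enumerated all 1680 assignments of the 9 libraries. The code was tested on simulated data. Alternatives were DESeq2 1.42.0, limma 3.58.1 (voom, and trend on log2 CPM with pseudocounts of 1 and 0.1), other scaling and filters, fitting only the libraries compared, robust dispersion, merged 5p rows, a replicate block and each library left out. Leaving libraries out of the 7 other ratios, the block and the added 1 CPM for them were chosen after seeing the data.

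Named miRNAs were all members, those sharing a member's seed, and the 5 closest in proportion to miR-30b-5p and to miR-30e-5p. Members, lists and tests were chosen with earlier results of these data known. Sequences are from RefSeq (GRCr8), and no coordinates are given because the build differs.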

Additional observations from a re-analysis of the deposited data

How the results depend on the processing

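The count of miR-30 miRNAs past the adjusted threshold was 0 in each comparison under every alternative run, including each library left out. The miR-30b-5p to miR-30e-5p log2 difference between MK-801 and VEH ran from -0.72 without MK-801 replicate 2 to -0.48 without VEH replicate 3, and its adjusted p stayed above the threshold. The replicate numbers did not pair the libraries, as correlations of same-numbered deviations ran from -0.324 to 0.138. With the replicate number as a block the difference was -0.60 (exact permutation p = 0.0833), miR-30b-5p was at -0.34 and miR-30e-5p at 0.25 in MK-801 against VEH, and the count of miRNAs past the threshold was 0. For miR-30b-5p in MK-801 against VEH, 17 of 21 alternatives kept an unadjusted p under 0.05. For miR-30e-5p 18 of 21 did, and for miR-30b-5p in MK-801+CLO against MK-801 13 of 21. Merging the 5p rows is not among the 21, because it replaces both rows. In MK-801 against VEH, edgeR then gave miR-30b-5p with miR-30c-5p -0.179 (unadjusted p = 0.0952). It gave miR-30a-5p, miR-30d-5p and miR-30e-5p together 0.061 (unadjusted p = 0.548). In MK-801+CLO against MK-801 miR-30b-5p with miR-30c-5p was at 0.157 (unadjusted p = 0.139, edgeR). These alternatives reuse the same counts, and some leave out only a library of the group not compared. Without VEH replicate 3, MK-801 replicate 1 or MK-801 replicate 3, edgeR gave miR-30b-5p in MK-801 against VEH an unadjusted p of 0.129, 0.0575 and 0.0951. With upper-quartile factors it was 0.0624. Over all miRNAs, edgeR called 0 in each comparison and DESeq2 1, 2 and 3, in the order MK-801 against VEH, MK-801+CLO against MK-801 and MK-801+CLO against VEH. EdgeR called 1 in the first without MK-801 replicate 2, and 2 in the second and 7 in the last without MK-801+CLO replicate 2, none of them miR-30 miRNAs. Some log2 fold changes turned sign, none of them past the threshold. With upper-quartile factors miR-30a-3p went to 0.056, -0.056 and -0.001 in that order, and in MK-801+CLO against MK-801 miR-30c-1-3p went to -0.063 and miR-30e-3p to -0.057. With library totals miR-30c-2-3p went to -0.013 in MK-801 against VEH, and miR-30a-3p to -0.045 and miR-30b-3p to -0.022 in MK-801+CLO against VEH. With each library left out in turn, values in MK-801 against VEH ran from -0.109 to 0.074 for miR-30a-3p, -0.296 to 0.167 for miR-30b-3p, -0.084 to 0.124 for miR-30c-2-3p, -0.264 to 0.033 for miR-30d-3p and -0.002 to 0.181 for miR-30e-3p. In MK-801+CLO against MK-801 they ran from -0.058 to 0.130 for miR-30a-3p, -0.127 to 0.011 for miR-30a-5p, -0.029 to 0.124 for miR-30c-1-3p, -0.179 to 0.033 for miR-30c-2-3p, -0.150 to 0.014 for miR-30c-5p and -0.061 to 0.127 for miR-30e-3p. In MK-801+CLO against VEH they ran from -0.086 to 0.052 for miR-30a-3p, -0.151 to 0.309 for miR-30b-3p, -0.108 to 0.085 for miR-30b-5p, -0.155 to 0.004 for miR-30c-2-3p, -0.104 to 0.038 for miR-30c-5p and -0.078 to 0.316 for miR-30d-5p. The arm ratio of miR-30c in MK-801 against VEH ran from -0.074 to 0.061. The cause of these turns was not tested. At the lowest depth miR-30b-3p rested on 64 counts.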
